A study of Mus musculus with 12 samples.

Results

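The cytosolic ribosomal protein genes were taken as the protein-coding rows of the expression table whose symbols follow the Rpl and Rps naming pattern, which gave 82 genes of the 55385 features measured in mouse liver. The pattern takes in the P proteins of the stalk (Rplp0, Rplp1 and Rplp2), Rpsa and numbered paralogues such as Rps27l, and leaves out ribosome components that go under other names, such as Fau and Rps3a1. Of the 82 genes, 79 had a mean of at least 1 TPM (transcripts per 1000000, a level scaled by transcript length) and entered the tests, 48 of the large and 31 of the small subunit. The other 3, Rpl3l, Rpl10l and Rpl39l, are paralogues known from muscle or testis.

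Livers of 12 male C57BL/6 mice aged 7 weeks were collected 7 days after injection of adenovirus, with 4 mice in each of 3 groups. The Ad-Ctrl group received the Lac control virus with the empty pAdV5 virus. The Ad-shmGULL group received a virus expressing an shRNA against the mouse lncRNA mGULL together with pAdV5, and the Ad-shmGULL+hGULL group received the shRNA virus with a virus expressing the human lncRNA hGULL. All groups, controls included, carried adenovirus, at a total of 500000000 plaque-forming units. Libraries were made from whole liver, so fewer cells of a type and less RNA per cell cannot be told apart.

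Ribosomal proteins assemble with ribosomal RNA in the nucleolus into a large subunit, which joins amino acids, and a small subunit, which reads the mRNA. Their mRNAs are among the most abundant of any growing cell, and most begin with a C followed by a run of pyrimidines, the 5′ terminal oligopyrimidine element through which mTORC1 and LARP1 set their translation. In liver, feeding and insulin act on ribosomal protein synthesis largely at that step of translation, which mRNA levels do not record. Most of the proteins are encoded by a single functional gene, whereas processed pseudogenes copied from these short, abundant mRNAs are scattered over the mammalian genome.

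The start regions are shown first because the pyrimidine element that the family is known for begins at the first base of the mRNA. The search below is wider than that element. RefSeq promoter sequence of GRCm38.p6 was matched for 62 of the 82 genes. The letters CTTTCC, a short pyrimidine run searched on the transcribed strand only, stood within 50 bases of the annotated start in 19 of the 62 (30.6%), in 5.43% of the 27025 genes of the whole promoter table and in 5.21% of 9623 other tested protein-coding genes. The letters CCGGAAG, the core bound by ETS-family factors and searched on both strands from 100 bases before to 50 after the start, were likewise found in 19 of the 62 (30.6%), in 7.52% of all genes and in 15.6% of other tested protein-coding genes. Of the 62 genes, 8 held both, and the motifs cannot share more than their end letters. A match describes letters in this window and not a used start or a bound site. The stretches below are from genes that the results return to, with CTTTCC in capitals.
Rps27: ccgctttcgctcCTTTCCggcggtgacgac
Rpl31: acggctacgcgaCTTTCCctcccacaaacc
Rpl4: caagtgacaagtCTTTCCttttcctgtggg
Rpl18: tcgcaggccgctCTTTCCccgcccactccg
Rps19: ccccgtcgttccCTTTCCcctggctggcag
Rps10: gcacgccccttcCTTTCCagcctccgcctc
They lie at chr3:90213630-90213659 (minus strand), chr1:39367870-39367899 (plus strand), chr9:64173358-64173387 (plus strand), chr7:45718062-45718091 (plus strand), chr7:24884623-24884652 (plus strand) and chr17:27635223-27635252 (minus strand) of GRCm38.p6. The motif begins at base 2 of the annotated Rps27 transcript and at base 32 of that of Rpl31, so that annotated starts differ in how far they lie from it. For Rpl4 it begins at -17, before the annotated start and so outside the mRNA that begins there. For Rps19 it begins at -41 from an annotated start. The annotated Rps19 gene begins further upstream, at 24884592, so the motif lies within the gene. Which Rps19 start is used in liver was not tested. Rps27 and Rpl31 were among the members with the largest differences after rescue, Rpl4 among the highest in level and Rps10 the lowest.

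The table is in TPM, which sums to 1000000 in every mouse, so the depth of each library is unknown. The 6 markers of hepatocytes took up 7.52% to 11.1% of TPM in Ad-Ctrl, 8.09% to 9.55% in Ad-shmGULL and 6.88% to 8.24% in Ad-shmGULL+hGULL. Ad-shmGULL replicate 1 stood apart: protein-coding genes made up 77.3% of its TPM against at least 81.1% in every other mouse. Ad-Ctrl replicate 1 was the highest of the 12 mice for 39 of the 79 tested ribosomal protein genes, and Ad-shmGULL replicate 1 the lowest for 38 and the highest for 6. The median deviation of Ad-shmGULL replicate 1 from its group mean, in log2, was -0.11 for members and likewise for all tested genes. For Ad-Ctrl replicate 1 it was 0.20 for members and 0.094 for all tested genes. Markers of T and NK cells summed to 81.1 TPM in Ad-Ctrl replicate 1, and the group's lowest sum was 26.5 TPM. The level of the targeted lncRNA was not analysed here.

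The TPM of ribosomal protein mRNAs spanned a wide range, although the proteins are present in near-equal numbers in a ribosome. TPM is scaled by transcript length, which does not settle where reads shared with other places were counted. Most members share coding sequence with such places, as given below, so the order of genes is that of the deposited values. The median of the 79 tested genes was 95.2 TPM, with 37 genes at 100 TPM or more and 6 under 20 TPM. Small subunit genes had a median of 131 TPM and large subunit genes 83.5 TPM. Rplp1, a protein of the stalk that recruits elongation factors, was the highest at a mean of 1060 TPM over the 12 mice, and its range of 854 to 1230 TPM did not meet that of any other member. Below it came Rpl4 (541 TPM), Rps15 (510 TPM), Rplp0 (505 TPM) and Rpl8 (446 TPM), whose ranges overlapped from each to the next. These 5 genes held 26.2% of the TPM of all 82. Among the higher small subunit genes below Rps15 were Rps4x (300.4 TPM), Rps27l (266 TPM) and Rps2 (266 TPM). The lowest tested genes were Rps10 at 3.80 TPM, Rpl17 at 11.0 TPM, Rpl13a at 14.5 TPM, Rpl21 at 17.6 TPM, Rpl24 at 18.2 TPM and Rps15a at 19.5 TPM. Rps10 stood at 5.84, 3.43, 2.76 and 4.63 TPM in Ad-Ctrl, 5.38, 3.70, 2.96 and 2.25 TPM in Ad-shmGULL and 3.95, 3.47, 4.01 and 3.17 TPM in Ad-shmGULL+hGULL, with the 3 groups overlapping.

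**Figure D1:**
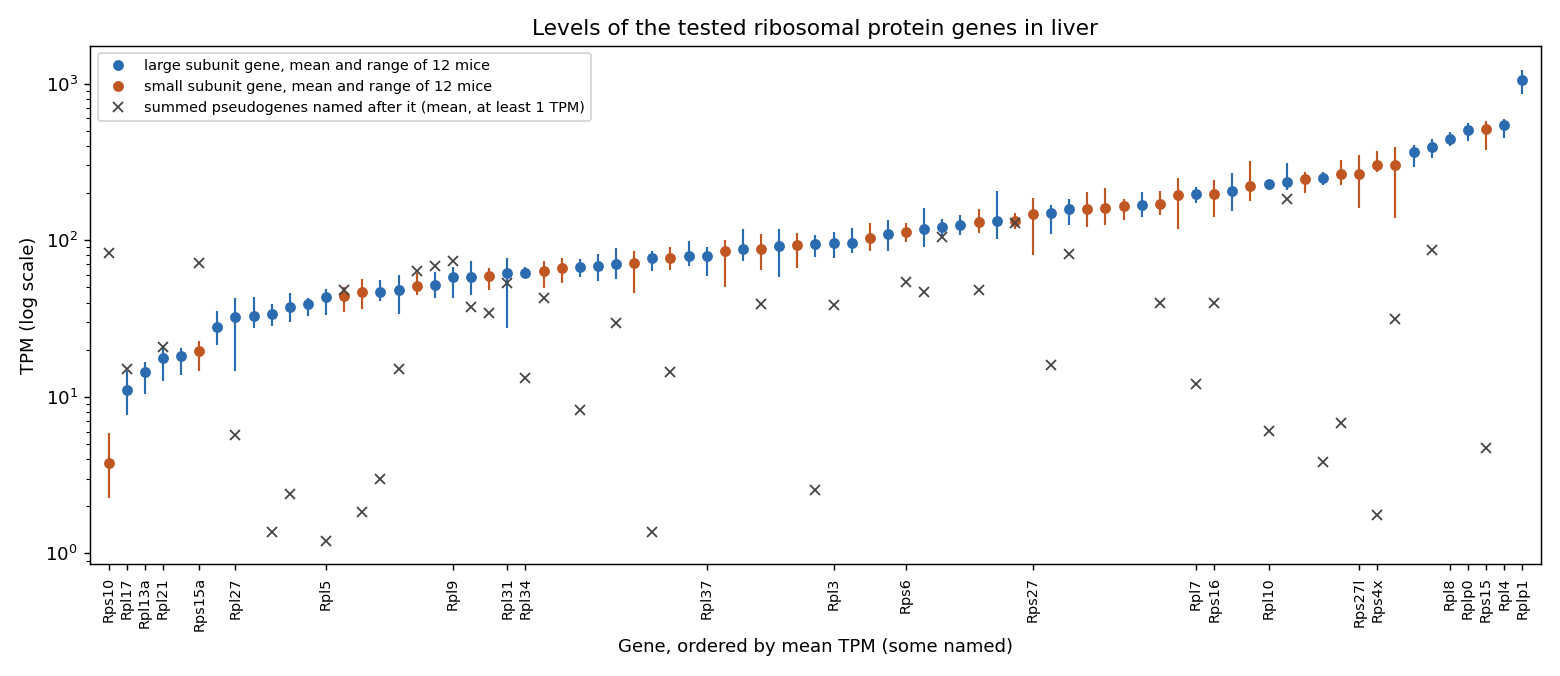
Mean TPM (points, log scale) and range over 12 mice (lines) of the 79 tested ribosomal protein genes, ordered by mean and named in part, with the summed TPM of pseudogenes named after each gene as crosses. The genes run from 3.80 TPM (Rps10) to 1060 TPM (Rplp1), and the cross lies above the point for 8 genes.

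The table also lists 311 rows named as pseudogenes of ribosomal protein genes, 88 of them with a mean of at least 1 TPM. Together they took up 0.160% to 0.180% of TPM in Ad-Ctrl, 0.133% to 0.178% in Ad-shmGULL and 0.177% to 0.183% in Ad-shmGULL+hGULL. For 8 members the pseudogenes named after the gene summed to more than the gene itself. Rps10-ps2, a processed pseudogene, had a mean of 61.8 TPM, and its lowest mouse at 47.3 TPM lay above the highest mouse of Rps10 at 5.84 TPM. For Rps15a and Rpl9, too, the named pseudogenes summed above the gene in 12 of 12 mice, with means of 72.0 TPM against 19.5 TPM and 73.5 TPM against 58.0 TPM.

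The coding sequences of these genes were compared with the rest of the GRCm39 genome in words of 32 bases. A median of 93.9% of a member's words had an exact copy at another place, against 0% for the 78 mitochondrial ribosomal protein genes and 13.0% for 47 translation factors. Of the 82 members, 77 had at least 1 locus elsewhere that held 25% or more of their words, with a median of 5 such loci and a maximum of 54 for Rpl21. Reads from such words cannot be assigned to a gene by sequence alone, and how they were counted is not given in the sources used here. The 6 tested members with under 50% of words elsewhere, Rpl8, Rps3 and Rpl4 among them, had a median of 174 TPM, and the other 73 a median of 93.5 TPM. Over the 79 genes, which share the same 12 libraries, Spearman's rho between mean TPM and the share of words elsewhere was -0.29. The part of shared sequence in the low values was not tested.

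**Figure D2:**
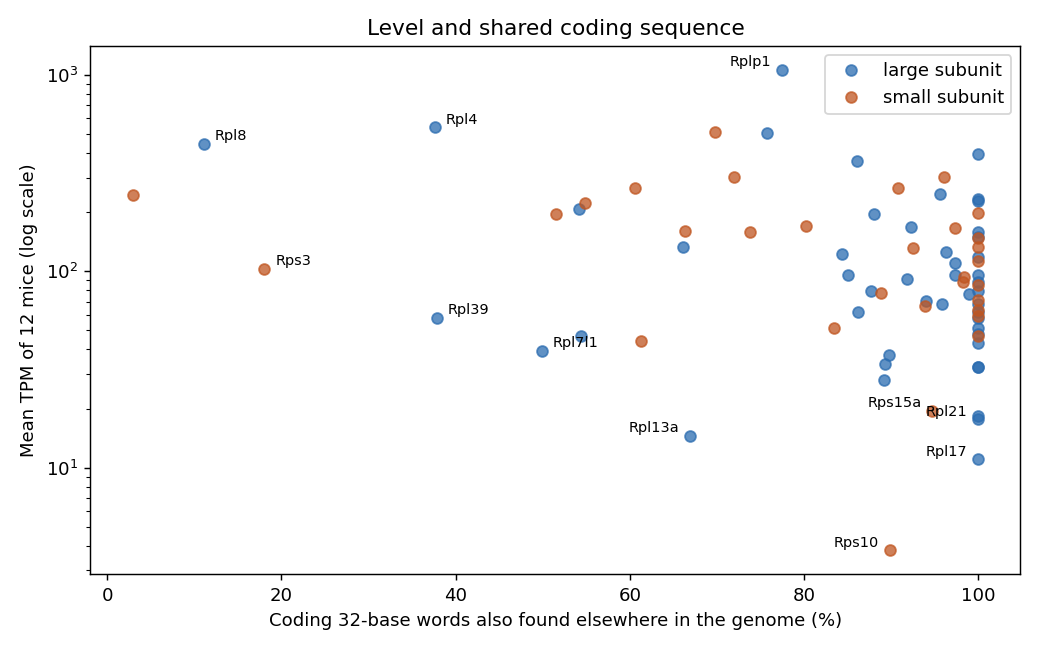
Mean TPM over 12 mice (log scale) against the percentage of a gene's coding 32-base words that occur elsewhere in GRCm39, 1 point per tested ribosomal protein gene, coloured by subunit. Rpl8 and Rpl4 stand at 446 and 541 TPM with under 50% of words elsewhere, and Rps10, Rpl17 and Rpl21 lie among the lowest with 89.9%, 100% and 100%.

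As a share of all transcripts, ribosomal protein mRNAs were nearly level between control and knockdown mice and somewhat higher in rescue mice. The 82 genes took up 1.14% ± 0.109 of TPM in Ad-Ctrl, 1.13% ± 0.0759 in Ad-shmGULL and 1.23% ± 0.0313 in Ad-shmGULL+hGULL (SD, n = 4 each). The higher mean in rescue mice depended on the total used. Without the 20 highest genes the share was 1.64% ± 0.143 in Ad-Ctrl, 1.60% ± 0.0771 in Ad-shmGULL and 1.65% ± 0.0430 in Ad-shmGULL+hGULL. Rescue and control mice were then nearly level. By mouse, large subunit genes took up 0.790%, 0.667%, 0.626% and 0.709% in Ad-Ctrl, 0.661%, 0.720%, 0.743% and 0.667% in Ad-shmGULL, and 0.732%, 0.760%, 0.714% and 0.742% in Ad-shmGULL+hGULL. The 3 groups overlapped. Small subunit genes took up 0.499%, 0.411%, 0.416% and 0.443% in Ad-Ctrl, 0.386%, 0.469%, 0.462% and 0.426% in Ad-shmGULL, and 0.490%, 0.503%, 0.473% and 0.487% in Ad-shmGULL+hGULL. For the small subunit every rescue mouse lay above every knockdown mouse, and Ad-Ctrl replicate 1 lay among the rescue mice. The ratio of large to small subunit TPM was 1.58 ± 0.0505 in Ad-Ctrl, 1.60 ± 0.0774 in Ad-shmGULL and 1.51 ± 0.0124 in Ad-shmGULL+hGULL (SD, n = 4 each). Every knockdown mouse had a higher ratio than every rescue mouse, 1.53 being the lowest of the former and 1.52 the highest of the latter.

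**Figure D3:**
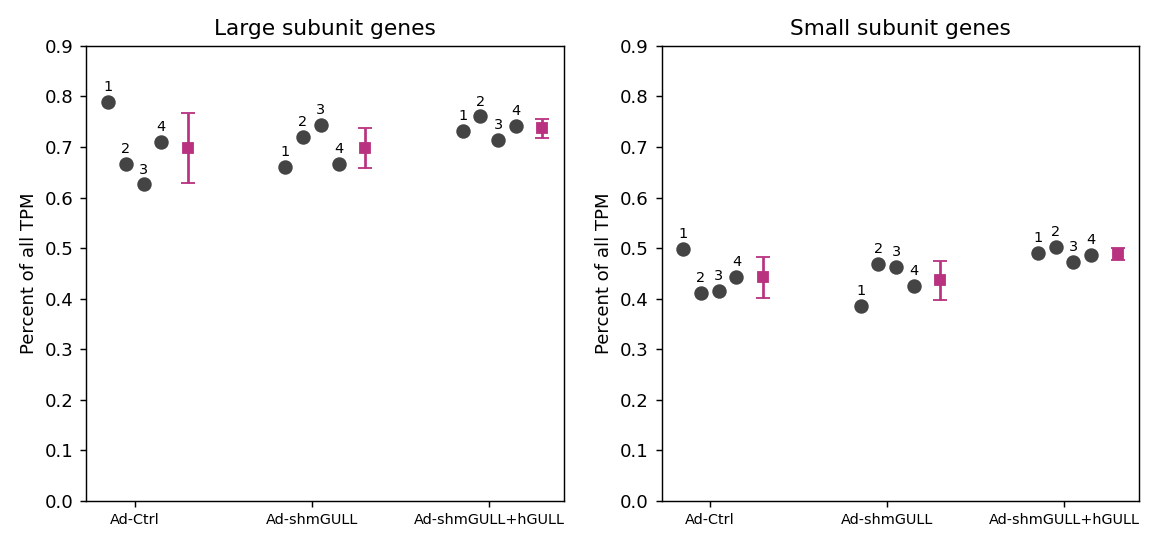
Percentage of all TPM taken by large and small subunit genes in each mouse (grey points, numbered by replicate), with the mean and SD of each group in magenta. For the small subunit the rescue mice lie between 0.473% and 0.503%, above the 4 knockdown mice, while for the large subunit the groups overlap.

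The rescue mice also resembled each other more closely. The median SD between mice of a group, on the log2(TPM + 1) scale, was 0.16 for ribosomal protein genes in Ad-Ctrl, 0.18 in Ad-shmGULL and 0.055 in Ad-shmGULL+hGULL, and over all 16378 tested genes it was 0.19, 0.24 and 0.13. The rescue group had the smallest SD of the 3 groups for 71 of the 79 genes. In Ad-Ctrl replicate 1, 76 of the 79 genes lay above their group mean, and in Ad-shmGULL replicate 3, 73 did, so much of the spread was shared by genes within a mouse. Over all 12 mice the steadiest members were Rpl10, Rpl34 and Rpl7, with coefficients of variation of 4.82%, 4.96% and 5.91%, and the most variable were Rps10 (27.8%) and Rpl27 (25.6%).

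Knockdown of mGULL was followed by no call among ribosomal protein genes. The question was which liver genes respond to loss of mGULL. Of the 79 genes tested, 0 passed a log2 fold change beyond 0.5 with P under 0.05 in either direction, where 5.35% of all genes tested passed it as higher and 2.3% as lower. With limma, 0 had an adjusted p under 0.05 (2.44% of all genes higher, 0.794% lower) and 2 had an unadjusted P under 0.05, both lower (4.8% of all genes). The median fold change of the members was -0.047 on the log2 scale, that of the large subunit -0.032 and of the small subunit -0.060, and that of all genes tested 0.087. The groups did not overlap for 0 members (6.93% of all genes higher, 2.06% lower). Above 0 lay 25 of 79 members against 65.5% of all genes, and 6 of 79 lay above the median of all genes. Leaving out Ad-Ctrl replicate 1 turned the members' median to 0.016, with 43 of 79 members above 0, while 15 lay above the median of all genes. Scaling by the median of ratios moved the median of all genes to -0.0093 and that of the members to -0.16.

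The 2 members with P under 0.05 were Rpl37 and Rpl9, both proteins of the large subunit. Rpl37 measured 91.0, 75.4, 77.2 and 84.2 TPM in Ad-Ctrl, 59.0, 73.7, 76.2 and 71.8 TPM in Ad-shmGULL and 87.9, 81.8, 85.3 and 84.1 TPM in Ad-shmGULL+hGULL. Of the knockdown mice, 3 of 4 lay below every control, with a log2 fold change of -0.22 ± 0.090 (SE) and an adjusted p of 0.183 by limma. Rpl9 measured 65.0, 53.6, 57.8 and 59.1 TPM in Ad-Ctrl, 42.6, 53.6, 57.6 and 50.8 TPM in Ad-shmGULL and 63.7, 62.9, 61.3 and 67.4 TPM in Ad-shmGULL+hGULL, with a log2 fold change of -0.20 ± 0.094 (SE) and an adjusted p of 0.244 by limma. The largest negative value was that of Rps27, at -0.29 ± 0.16 (SE), and it was -0.087 without Ad-shmGULL replicate 1. Rpl23a (-0.27) and Rpl23 (-0.21) were also among the lowest in log2 fold change, and the largest positive values were those of Rps2 (0.16), Rpl18 (0.15), Rpl41 (0.14), Rplp1 (0.13) and Rps9 (0.11). None of these had an adjusted p under 0.05.

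**Figure D4:**
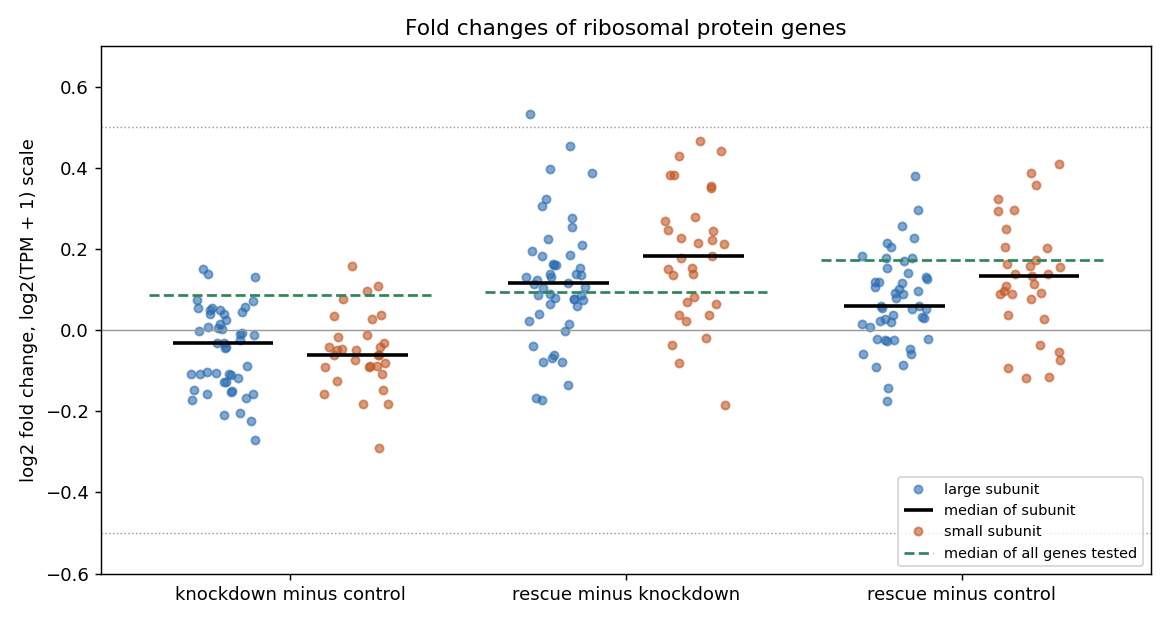
Log2 fold change of each tested ribosomal protein gene, by subunit, in the 3 comparisons on the log2(TPM + 1) scale, with subunit medians as black bars, the median of all 16378 genes tested as a dashed line and a log2 fold change of 0.5 in either direction as dotted lines. Most members lie below the dashed line in knockdown minus control, and 1 gene, Rpl27, lies beyond 0.5 in rescue minus knockdown.

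Rescue with hGULL was compared with knockdown to ask which genes respond to the human transcript. It shares the knockdown mice with the comparison above, so a low knockdown mouse enters both. Of the 79 genes, 1 passed the fold change and P thresholds as higher (2.33% of all genes) and 0 as lower (0.672%). By limma 0 had an adjusted p under 0.05, as did 0% of all genes, and 19 had an unadjusted P under 0.05, all higher, which is 24.1% of members against 9.32% of all genes (1.4% lower). In either direction the 19 became 10 with TPM rescaled without the 20 highest genes and 12 with median-of-ratios scaling. It was 11 without Ad-shmGULL replicate 4 and 29 without Ad-shmGULL replicate 2. The share of all genes was not computed for these settings. The median SE was 0.109 for members and 0.146 for all genes tested. In 19 members, 12 of the small and 7 of the large subunit, every rescue mouse lay above every knockdown mouse, against 5.4% of all genes, and in 0 members every rescue mouse lay below (0.983%). Without Ad-shmGULL replicate 1 the count was again 19, against 6.66% of all genes. Leaving out a mouse can only keep or raise such a count, so it cannot show whether the 19 rest on that mouse. The median log2 fold change was 0.14 for all members, 0.11 for the large and 0.18 for the small subunit, and 0.093 for all genes tested. Without Ad-shmGULL replicate 4 it was 0.11 for members and 0.095 for all genes. Without Ad-shmGULL replicate 3 it was 0.16 and 0.077.

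Rpl27 was the gene past the thresholds. It encodes a large subunit protein and lies on chromosome 11 from 101442245 to 101445596. Its values were 29.6, 24.2, 30.4 and 36.0 TPM in Ad-Ctrl, 14.6, 41.1, 31.3 and 26.5 TPM in Ad-shmGULL and 34.4, 42.8, 36.6 and 43.1 TPM in Ad-shmGULL+hGULL. Ad-shmGULL replicate 1 was the lowest of the 12 mice, and the groups overlapped through Ad-shmGULL replicate 2. The log2 fold change was 0.53 ± 0.24 (SE), with P of 0.0436 and an adjusted p of 0.455 by limma, and without Ad-shmGULL replicate 1 it was 0.26.

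Rps27, a zinc-finger protein of the small subunit, measured 161, 136, 147 and 158 TPM in Ad-Ctrl, 80.2, 129, 150.4 and 146 TPM in Ad-shmGULL and 153, 164, 160.2 and 187 TPM in Ad-shmGULL+hGULL. Rescue mice lay above knockdown mice and overlapped controls, with a log2 fold change of 0.43 ± 0.16 (SE) that became 0.22 without Ad-shmGULL replicate 1. Rpl31 had a log2 fold change of 0.45 ± 0.22 (SE), with groups that overlapped, and of 0.16 without Ad-shmGULL replicate 1. Values below 0 were few and small, the largest in size being Rps9 (-0.18), Rpl37a (-0.17) and Rpl11 (-0.17).

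**Figure D5:**
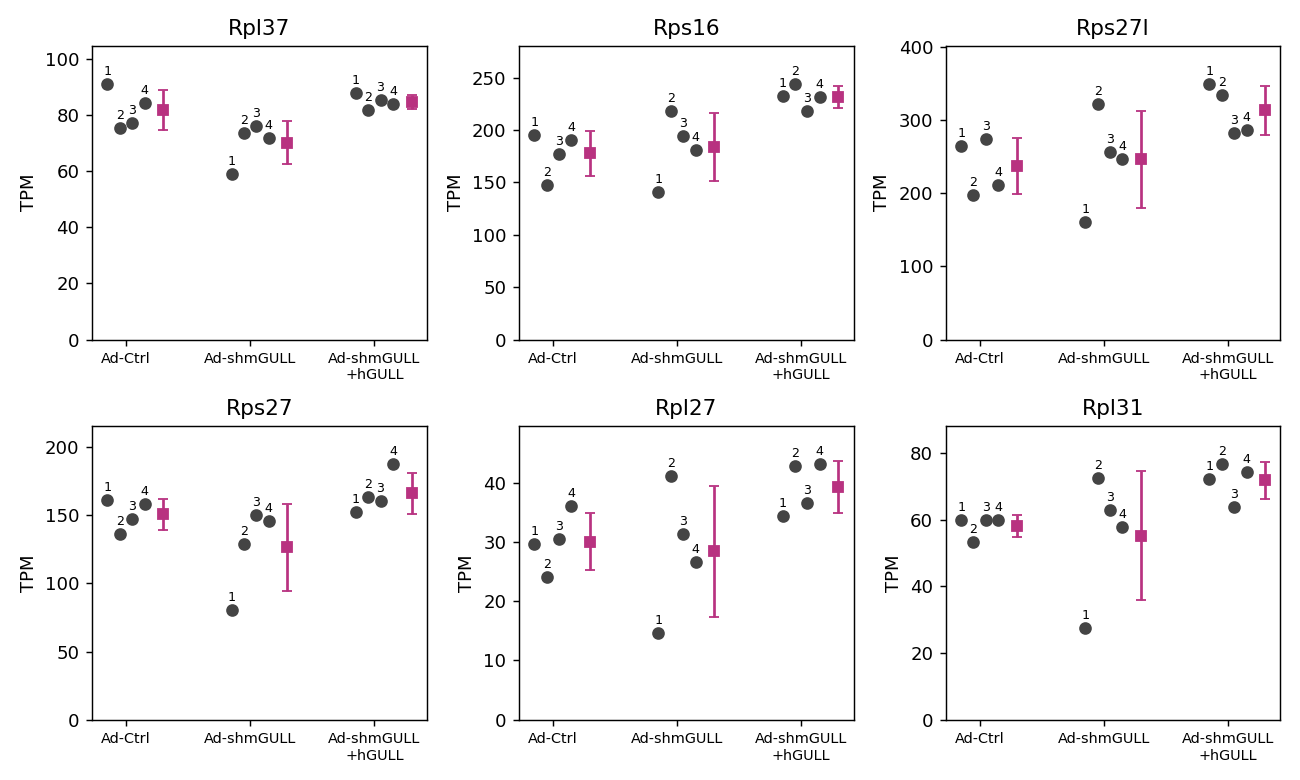
TPM of 6 ribosomal protein genes in each mouse (grey points, numbered by replicate) with the mean and SD of each group in magenta, each axis starting at 0. Ad-shmGULL replicate 1 is the lowest of the 12 mice for all 6 genes, and for Rps16 the 4 rescue mice lie between 218 and 244 TPM, above the 4 controls.

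Rescue and control mice were compared to ask how far the rescued liver stood from control. Of the 79 genes, 0 passed the fold change and P thresholds in either direction (6.84% of all genes higher, 0.641% lower), and 0 had an adjusted p under 0.05 by limma (2.12% higher, 0.0244% lower). An unadjusted P under 0.05 was found for 8 members, all higher (24.2% of all genes higher, 1.09% lower), and the groups did not overlap for 14, all higher, 10 of them of the small subunit (21.4% of all genes higher, 0.855% lower). The 14 members are 17.7% of those tested. Without Ad-Ctrl replicate 1 the groups did not overlap for 38 members, or 48.1%, against 35.0% of all genes. Leaving out a mouse can only keep or raise such counts. Whether the members' share lay below or above that of all genes depended on Ad-Ctrl replicate 1. The median log2 fold change was 0.092 for members and 0.17 for all genes tested. Its sign depended on the scaling: median-of-ratios scaling gave -0.11 for the members with -0.0059 for all genes, and quantile normalization -0.060 with -0.0082.

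Rps16, a small subunit protein near the decoding site with its gene on chromosome 7 from 28350689 to 28352698, had the lowest P of this comparison. It stood at 195, 148, 177 and 191 TPM in Ad-Ctrl, 141, 218, 194 and 181 TPM in Ad-shmGULL and 232, 244, 218 and 232 TPM in Ad-shmGULL+hGULL. Rescue mice lay above every control mouse and overlapped the knockdown group at Ad-shmGULL replicate 2. The log2 fold change was 0.39 ± 0.12 (SE), with P of 0.00895 and an adjusted p of 0.0967 by limma. Rps27l, a paralogue of Rps27 known as a p53 target, lies on chromosome 9 from 66944624 to 66949522 and had the largest value. It stood at 264, 197, 275 and 212 TPM in Ad-Ctrl, 161, 322, 257 and 247 TPM in Ad-shmGULL and 349.6, 335, 283 and 287 TPM in Ad-shmGULL+hGULL. Rescue mice again lay above all control mice, with a log2 fold change of 0.41 ± 0.18 (SE) and an adjusted p of 0.184 by limma. Rpl27 (0.38) and Rps29 (0.32) were also among the larger in log2 fold change, and Rpl37a (-0.18), Rpl11 (-0.14) and Rps10 (-0.12) were the lowest.

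The members were next taken by role. The stalk proteins stood at 982 ± 123 TPM in Ad-Ctrl, 1069.5 ± 55.4 TPM in Ad-shmGULL and 1128 ± 81.6 TPM in Ad-shmGULL+hGULL for Rplp1, and 478 ± 34.0 TPM in Ad-Ctrl, 497 ± 49.2 TPM in Ad-shmGULL and 539.8 ± 19.8 TPM in Ad-shmGULL+hGULL for Rplp0 (SD, n = 4 each). Rplp2, their partner, was much lower, at 95.8 ± 16.3 TPM in Ad-Ctrl, 93.8 ± 11.4 TPM in Ad-shmGULL and 98.5 ± 5.94 TPM in Ad-shmGULL+hGULL. Rpl5 and Rpl11 bind 5S RNA and, when free of the ribosome, Mdm2. Rpl5 measured 43.2 ± 4.85 TPM in Ad-Ctrl, 39.6 ± 5.87 TPM in Ad-shmGULL and 47.0 ± 1.30 TPM in Ad-shmGULL+hGULL, and Rpl11 90.5 ± 16.3 TPM in Ad-Ctrl, 92.6 ± 19.9 TPM in Ad-shmGULL and 81.0 ± 2.50 TPM in Ad-shmGULL+hGULL, so that the mean of the rescue group was the highest for the former and the lowest for the latter. Rps6, the substrate of the S6 kinases, had 129.7, 106, 102 and 112 TPM in Ad-Ctrl, 112, 97.6, 113 and 99.5 TPM in Ad-shmGULL and 116, 119, 119.6 and 122 TPM in Ad-shmGULL+hGULL. Its rescue mice lay above all knockdown mice and below Ad-Ctrl replicate 1, with a log2 fold change of 0.18 ± 0.084 (SE) against knockdown and an adjusted p of 0.467 by limma.

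Of the paralogues, those known from muscle or testis were near 0. Rpl10l was listed at 0 in all mice, Rpl39l reached at most 0.28 TPM and Rpl3l 0.36 TPM, beside means of 227 TPM for Rpl10, 58.1 TPM for Rpl39 and 95.7 TPM for Rpl3. Rpl22l1 had a mean of 28.1 TPM beside 47.0 TPM for Rpl22, and Rpl7l1 39.3 TPM beside 196 TPM for Rpl7. Rps27l was the exception, with a mean of 266 TPM beside 148 TPM for Rps27. Of coding words of 32 bases, 60.6% in Rps27l and 100% in Rps27 also occur elsewhere. The part of this in their order was not tested. Rps4l is listed as a transcribed processed pseudogene, with a mean of 43.2 TPM, and was not counted as a member.

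Several members serve as reference genes in quantitative PCR. Over the 12 mice the coefficient of variation was 8.42% for Rplp0, 9.22% for Rps18, 9.66% for Rpl32, 11.6% for Rpl19 and 12.5% for Rpl13a, against 17.1% for Actb and 21.2% for Gapdh. Rpl19 was higher in all 4 rescue mice than in all 4 controls, with a log2 fold change of 0.26 ± 0.10 (SE) and an adjusted p of 0.153 by limma. Of the 5 ribosome components outside the naming pattern that were tested, 0 passed either threshold in any of the 3 comparisons. Of these, Fau had a mean of 359 TPM and Rps3a1 299 TPM.

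Other genes of the translation system were counted by list, against the 5.35%, 2.33% and 6.84% of all genes that passed the fold change and P thresholds as higher in knockdown against control, rescue against knockdown and rescue against control mice (2.3%, 0.672% and 0.641% as lower). Of 35 initiation factor genes, 0 passed the fold change and P thresholds in any comparison. Of 12 elongation factor and associated genes, 1 passed in rescue minus control, the histone chaperone gene Nap1l1 at 0.57, with an adjusted p of 0.0994 by limma. Among 58 ribosome biogenesis genes, Ddx21, a nucleolar helicase gene, fell after knockdown, with 43.0, 38.1, 34.2 and 37.9 TPM in Ad-Ctrl, 24.2, 28.4, 28.6 and 20.4 TPM in Ad-shmGULL and 29.8, 30.0, 31.2 and 33.4 TPM in Ad-shmGULL+hGULL, and the control and knockdown groups did not overlap. Its log2 fold change was -0.58 ± 0.11 (SE), with an adjusted p of 0.0179 by limma. Nop10, of the H/ACA particle, passed in rescue minus knockdown alone at 0.63, with an adjusted p of 0.411 by limma. It stood at 21.5, 56.1, 46.0 and 45.1 TPM in Ad-shmGULL and 61.5, 65.1, 54.3 and 69.7 TPM in Ad-shmGULL+hGULL. Those groups overlapped, and Ad-shmGULL replicate 1 was the lowest of the 12 mice. Of 77 tested mitochondrial ribosomal protein genes, 0, 1 and 2 passed the thresholds in the 3 comparisons in that order, all as higher, and 0 had an adjusted p under 0.05 by limma. Of 8 tested S6 kinase genes, Rps6ka1, a p90 S6 kinase, rose after knockdown by 0.59 ± 0.10 (SE, adjusted p = 0.0137 by limma), and in rescue minus control, where it missed the fold change threshold, it stood at 0.47 ± 0.10 (SE, adjusted p = 0.0426 by limma). Of 22 genes of mTORC1 and its effectors, 2 had an adjusted p under 0.05 by limma in rescue minus control. They were Mlst8, a subunit of the mTOR complexes, higher by 0.62 ± 0.14 (SE, adjusted p = 0.0431 by limma), and Tsc2, which restrains mTORC1, higher by 0.30 ± 0.070 (SE, adjusted p = 0.0478 by limma) and under the fold change threshold. Of 8 tested ribosome quality control and p53 genes, Cdkn1a, the p53-responsive cell cycle inhibitor, was past the fold change and P thresholds in knockdown minus control (1.22) and in rescue minus control (1.28), with adjusted p of 0.0624 and 0.0571 by limma. Of 16 cell cycle genes, 6 passed the fold change and P thresholds as higher after knockdown, 2 in rescue minus knockdown and 14 in rescue minus control, and 1, 0 and 4 of them had an adjusted p under 0.05 by limma.

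Markers of other cells moved with the groups in part. Neutrophil marker genes summed to 118 to 272 TPM in knockdown and to 88.4 to 139 TPM in rescue mice, and 2 of the 3 tested were past the fold change and P thresholds as lower in rescue. B cell marker genes summed to 5.00 to 8.04 TPM in controls, 7.40 to 9.70 TPM in knockdown and 5.30 to 6.23 TPM in rescue mice, so that the knockdown and rescue groups did not overlap, and 0 of the 3 tested passed the thresholds. Endothelial marker genes summed to 85.0 to 149 TPM in controls, 141 to 185 TPM in knockdown and 136 to 166 TPM in rescue mice, and 1 of the 5 tested, Stab2, passed as higher after knockdown. Of the 6 hepatocyte markers, Apoa1 (-0.60) and Fgb (-0.52) were past the fold change and P thresholds as lower after knockdown, with adjusted p of 0.115 and 0.0501 by limma, and Apoa1 (-0.60) also in rescue minus control. The median of the 6 after knockdown was -0.060, and the highest value was 0.14. In the Kupffer cell, cholangiocyte and T and NK cell lists, 1 gene each passed in at least 1 comparison, Marco (-1.04 after knockdown and -0.93 in rescue minus control), Sox9 (0.64 after knockdown) and Gzmb (1.03 in rescue minus knockdown), and 0 passed in the stellate and erythroid lists. These genes do not stand for their lists. After knockdown the list median was 0.11 for Kupffer cell markers, with a highest value of 0.39, and -0.011 for cholangiocyte markers. For T and NK cell markers in rescue minus knockdown the median was 0.095 and the lowest value -0.29. The part of any of these in the ribosomal protein values was not tested. The 1511 other tested genes with coding sequences under 600 nucleotides, a length under which 56 of the 79 members also fall, had median log2 fold changes of 0.072, 0.093 and 0.15 in the 3 comparisons, beside -0.047, 0.14 and 0.092 for the members.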

How the data were processed

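Liver RNA of 12 mice was sequenced from strand-specific libraries. Per the submitters' processing notes and the study's methods, the authors trimmed reads with fastp 0.23.2, checked them with FastQC 0.11.8, aligned them with HISAT2 2.2.1.0 to GRCm38.p6 and counted them with featureCounts (Subread 2.0) on GENCODE genes. The deposited values are TPM, scaled by the authors to 1000000 per mouse, so depth is unknown and no counting interval is given. How reads matching several places were counted is not given in the sources used here.

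Groups came from the sample titles, which do not say whether mice were housed or processed together. Values were fitted as log2(TPM + 1) for 16378 genes averaging 1 TPM or more, as deposited, in 1 linear model of 3 groups with empirical Bayes variances and a trend (limma 3.58.1, R 4.3.3), two-sided, with Benjamini-Hochberg adjustment over all genes. Fold changes on this scale understate those of low genes. Calls used the study's limits, 0.5 for the log2 fold change and 0.05 for P. The procedure was tested on simulated data. Coding words came from GENCODE transcripts of GRCm39, the build of the genome used here, and promoters and gene positions from RefSeq on GRCm38.p6. Figures were drawn with matplotlib in Python 3.11.15.

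Named genes were the highest and lowest in level per subunit, the 5 largest and 5 smallest fold changes per comparison, genes chosen by role, and the most changed gene of each list. Values of some genes that this rule names are not reported here. Pseudogenes were named after their values were seen. The members and lists were chosen with earlier results of these data known. Alternatives were another pseudocount, filter, scaling, variance model and sample set, a replicate block and leaving out each mouse. Counts of groups that do not overlap without 1 mouse were added after seeing the data.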

Additional observations from a re-analysis of the deposited data

Results flagged for a closer look

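In a group of 4 mice, a value was picked out when its gap to the nearest other mouse made up most of the group's range, which chance alone does in about 1 of 20 groups. Of 168 groups examined, 6 were picked out. Ad-shmGULL replicate 1 had 57.9 TPM of Rpl23 beside 88.1 to 92.0 TPM in the other knockdown mice. Ad-Ctrl replicate 2 had 53.3 TPM of Rpl31 beside 59.8 to 59.9 TPM in the other controls. The other 4 were all Ad-shmGULL+hGULL replicate 2, the highest of its group, with 14.7 TPM of Rpl17 (others 11.8 to 12.2 TPM), 111 TPM of Rpl3 (others 99.8 to 101 TPM), 407 TPM of Rpl32 (others 376 to 379 TPM) and 50.6 TPM of Rps19 (others 47.7 to 48.1 TPM).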

How the results depend on the processing

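Of the recomputed values for single genes, 822 kept their direction and their side of the thresholds. A further 7 changed direction, 7 newly passed the thresholds and 14 no longer passed them. Of the counts, medians and shares, 200 stayed within a set limit and 31 did not. The limit was a ratio for counts and an SD between mice for medians and shares. Several settings cannot change a fold change, such as a replicate block, no trend or a mouse left out of the third group. Shares without 1 mouse cannot pass their limit. The count of members past the fold change and P thresholds in rescue minus knockdown, 1, became 0 with no filter, array weights, no trend, a fit of the 2 groups alone, median-of-ratios scaling, quantile normalization and TPM rescaled after taking out the 20 highest genes. It was 0 to 5 on leaving out single mice: 5 without Ad-shmGULL replicate 2, 3 without Ad-shmGULL replicate 3, and 0 without Ad-shmGULL replicate 1, Ad-Ctrl replicate 1 or 3, or rescue replicate 2, 3 or 4. Over all genes, 382 passed as higher in the main fit, 718 without Ad-shmGULL replicate 2 and 435 without Ad-shmGULL replicate 3. Members with an adjusted p under 0.05 by limma in knockdown minus control, 0, became 3 with median-of-ratios scaling (Rpl37, Rpl35a and Rpl9, all lower) and 1 with quantile normalization (Rpl37). In rescue minus control, 0 became 4 with the 2 groups alone, 7 with array weights and 0 to 2 on leaving out single mice (Rps16 and Rps29 without Ad-shmGULL replicate 1). The share of all genes with an adjusted p under 0.05 was not computed for these settings. Such counts therefore cannot set the members apart from other genes. The members' median in rescue minus control became -0.11 with median-of-ratios scaling and -0.060 with quantile normalization. Those 2 scalings take away most of the shift of all genes, 0.17 on the log2 scale in that comparison.

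With median-of-ratios scaling, Rps9 in knockdown minus control turned to -0.000763, and Rplp0 and Rplp1 in rescue minus control to -0.027 and -2.48e-05. On leaving out single mice, Rps9 in knockdown minus control ranged from -0.041 to 0.24, Rpl37a in rescue minus knockdown from -0.30 to 0.030, and Rps10 and Rps14 in rescue minus control from -0.26 to 0.029 and from -0.20 to 0.0054. Over protein-coding genes only, the members' share was 1.38% in Ad-Ctrl, 1.37% in Ad-shmGULL and 1.45% in rescue mice, and without the 20 highest genes 1.64%, 1.60% and 1.65%. With the 5 components outside the pattern it was 1.21% in Ad-shmGULL and 1.30% in Ad-shmGULL+hGULL, and without the paralogues 1.19% in Ad-shmGULL+hGULL. On leaving out single mice the share ranged from 1.09% to 1.17% in Ad-Ctrl and from 1.11% to 1.16% in Ad-shmGULL. In Ad-shmGULL+hGULL it ranged from 1.21% to 1.24%. The cause of these changes was not tested, except where fewer mice entered.

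Correlations of same-numbered mice, taken on deviations from the group mean, ranged from -0.24 to 0.15 and 2 of 12 were over 0.1. Between knockdown and rescue mice, the same-numbered mouse was the best match for replicates 2, 3 and 4. Between control and rescue mice it was so for replicate 4, and between control and knockdown mice for none. With 4 mice per group this cannot settle whether the numbers pair the mice, and the main fit did not pair them. With the replicate number as a block, 1 member again passed the fold change and P thresholds in rescue minus knockdown and 0 had an adjusted p under 0.05 by limma in any comparison. With no depth known, low genes such as Rps10 carry an unknown counting error.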
